A study of Homo sapiens with 8 samples.

Results

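The nuclear-encoded genes of the mitochondrial respiratory chain were examined in 5637 and UM-UC3 cells, 2 established human bladder cancer (BLCA) cell lines, after melatonin at 1, 2 or 4 mM or DMSO alone (0 mM) for 24 h. The members were the protein-coding rows whose gene name begins with NDUF, UQCR, ATP5 or COX followed by a digit from 4 to 8, together with SDHA, SDHB, SDHC, SDHD and CYC1. Of 60612 genes, 99 rows matched these names and 91 had a mean of at least 1 FPKM (fragments per kilobase of transcript, relative to the size of the library) over the 8 libraries. They comprised 46 genes of complex I, 4 of complex II, 9 of complex III, 14 of complex IV and 18 of complex V. There was 1 library for each dose and line, the labels give both lines as wild type, and how many cultures stand behind a library is not stated in the sources used here. The 5637 cells were kept in RPMI and the UM-UC3 cells in MEM, so line and medium cannot be told apart. The study asked how melatonin holds back the growth of such cells.

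Complex I takes electrons from NADH and complex II takes them from succinate, and both pass them to ubiquinone. Complex III hands them on to cytochrome c, complex IV passes them to oxygen, and complex V uses the proton gradient that complexes I, III and IV build to make ATP. The core subunits of complex I bind the flavin and the iron-sulfur clusters, and the accessory subunits surround them. The most hydrophobic subunits of complexes I, III, IV and V are encoded by the mitochondrial genome and are not members, and the assembly factors (the NDUFAF genes here) help to build complex I without staying in it.

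The libraries were checked before the members were read. FPKM values summed to 332961 to 342526 in the 5637 libraries and to 346772 to 395621 in the UM-UC3 libraries. The 5637 library at 4 mM held RNA of genes otherwise seen in UM-UC3 cells. Over 12 genes that were under 0.3 FPKM in 5637 and over 30 FPKM in UM-UC3 at both 0 and 1 mM, the median level in the 5637 library at 4 mM was 4.16% of that in the UM-UC3 library at 4 mM (quartiles 2.74% to 7.99%, lowest 1.75%, highest 54.4%), against 0.144% at 2 mM. Whether this RNA came from UM-UC3 material or was made by the 5637 cells at that dose was not tested. At 4.16% of its UM-UC3 level COX7B2 would have had 0.202 FPKM in the 5637 library at 4 mM, where it was listed at 0. The counts that rest on this library are also given with 4.16% of the UM-UC3 library taken off it, called the UM-UC3 share here. Summed over 14 markers of urothelial epithelium, of which 10 exceeded 1 FPKM in 5637 and 5 in UM-UC3, the level was 3612, 3265, 2584 and 987 FPKM in 5637 at 0, 1, 2 and 4 mM, and 207, 179, 130 and 99.8 FPKM in UM-UC3. Keratins made up most of these sums, and the list did not move as one. In 5637, KRT7 had 784, 671, 510 and 33 FPKM and KRT19 1229, 939, 688 and 231 FPKM, whereas CDH1 had 36.3, 46.8, 59.9 and 76.4 FPKM and EPCAM 79.1, 93.5, 119 and 114 FPKM. In UM-UC3, KRT18 had 149, 117, 74.1 and 43.6 FPKM and KRT8 48.0, 55.5, 52.8 and 54.0 FPKM. The part that these shifts play in the results below was not tested. The uroplakins UPK1A, UPK1B, UPK2 and UPK3A, which mark the surface layer of the urothelium, lay between 0 and 0.222 FPKM in every library of both lines, and EPCAM, CDH1, KRT5 and KRT19 between 0.02 and 0.294 FPKM in UM-UC3, the line in which KRT8 and KRT18 were present. No leukocyte or endothelial marker exceeded 1 FPKM in either line. In RNA of a whole culture, fewer cells of a kind and less RNA of a gene per cell cannot be told apart.

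More members fell than rose in 5637, and more rose than fell in UM-UC3. With a straight line over dose for each line, 29 of 91 members fell and 3 rose in 5637, with a median fitted change over 0 to 4 mM of −0.41 on the log2(FPKM + 1) scale. In UM-UC3, 24 rose and 6 fell, with a median of 0.32. Over all 12649 genes tested, 20.4% fell and 23% rose in 5637 with a median of 0.05, and 12.5% rose and 16.7% fell in UM-UC3 with a median of −0.04. A gene was called at an adjusted p under 0.05. The slopes of both lines came from 1 fit of all 8 libraries and share 1 estimate of the spread. The difference between the lines was called for 28 members, of which 26 had the lower change in 5637 and 2 the higher, against 10.4% and 15.3% of all genes. COX6B2 and COX7B2 passed the minimum only through the line in which each is expressed, and without both of them 31 members were called in 5637, 29 in UM-UC3 and 27 for the difference. The median difference, 5637 minus UM-UC3, was −0.73 over the members and 0.11 over all genes. These medians also depended on the highest dose. With its own 4 mM library left out, the members' median was −0.12 in 5637 and −0.04 in UM-UC3, beside 0.15 and −0.002 over all genes. The members' median difference was −0.39 without the 5637 library at 4 mM, beside 0.26 over all genes. It was −0.48 without that of UM-UC3, beside 0.06 over all genes.

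The steps over dose were not even. Relative to the DMSO library of the same line, the median member was at −0.07, −0.06 and −0.41 on the log2 scale at 1, 2 and 4 mM in 5637, and at 0.09, −0.02 and 0.36 in UM-UC3. The median of all genes tested was at 0.04, 0.08 and 0.05 in 5637, and at 0.05, −0.0009 and −0.03 in UM-UC3. At 4 mM, 77 of 91 members were below DMSO in 5637, and 60 of 91 were above it in UM-UC3. The shares of all genes below or above DMSO were not computed. The members made up 1.09%, 1.05%, 1.08% and 0.85% of the summed FPKM in 5637 at 0, 1, 2 and 4 mM. In UM-UC3 the shares were 1.21%, 1.25%, 1.11% and 1.20%. Calls within a line rested on its 4 mM library. Without the 5637 library at 4 mM, 1 member was called in 5637, and with the UM-UC3 4 mM library left out, none (0) was called in UM-UC3 by limma (7 at an unadjusted p under 0.05). The 5637 calls numbered 15 without the 5637 DMSO library, and the UM-UC3 calls numbered 19 without the UM-UC3 DMSO library. No difference between the lines was called without the 5637 or the UM-UC3 library at 4 mM (0 by limma, 12 and 11 at an unadjusted p under 0.05). Calls also depended on the filter and on the dose scale in limma. When genes under the minimum were kept, 9, 7 and 0 members were called in 5637, in UM-UC3 and for the difference. They numbered 11, 9 and 1 with dose on a log2 scale, and none (0) when any dose was set against DMSO. For all genes tested, the calls numbered 5483, 3696 and 3249, against 3544, 1462 and 763 on the log2 scale. With the genes under the minimum kept, which enlarges the set tested, they numbered 4649, 1676 and 318. None (0) of all genes was called for any dose against DMSO. Without the line's own 4 mM library, 773 of all genes were called in 5637 and 47 in UM-UC3. For the difference, 670 were called without the 5637 library at 4 mM and 63 without that of UM-UC3. With the UM-UC3 share taken off the 5637 library at 4 mM, 34 members fell and 3 rose in 5637, the 32 members called before were among them, and 31 differences between the lines were called. With all libraries rescaled to the same total, the median of all genes in UM-UC3 moved to −0.20, the members' median there was 0.13, and 17 members rose and 11 fell.

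**Figure D1:**
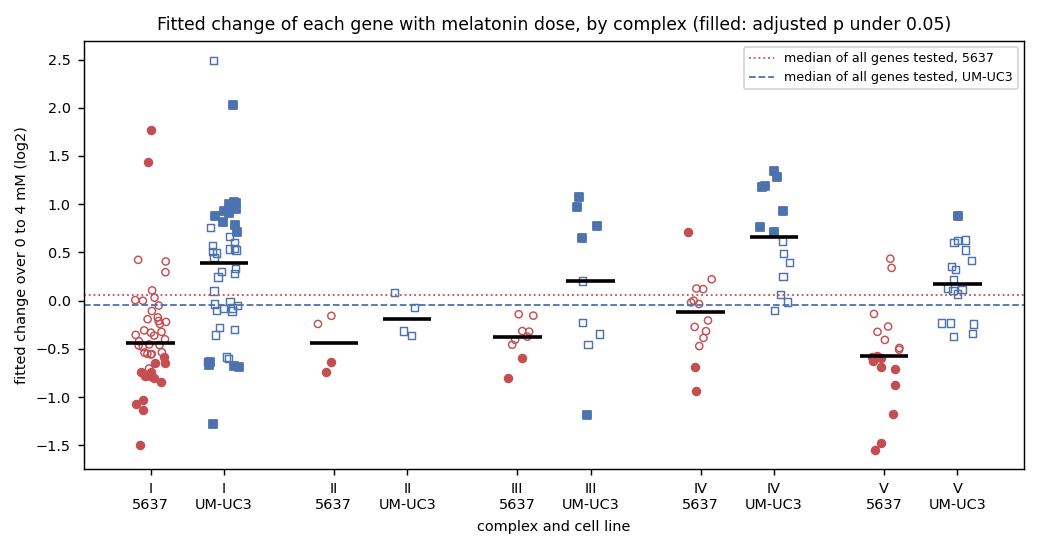
Fitted change over 0 to 4 mM of each of the 91 members (vertical axis, log2), by complex and cell line, with 1 point per gene. Filled points had an adjusted p under 0.05, black bars are group medians, and the dotted and dashed lines are the medians of all genes tested (0.05 in 5637 and −0.04 in UM-UC3). The medians of all 5 complexes lie below the line of all genes in 5637, from −0.58 to −0.12.

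Fitted with 1 slope for both lines, 3 members rose and 9 fell, with a median of −0.04, against 12.1% higher and 12.8% lower of all genes. The 3 that rose were NDUFA2, NDUFAF1 and COX7A2L. Among the 9 that fell were NDUFS6, NDUFS7, NDUFB7, NDUFB8 and NDUFB11 of complex I, CYC1 of complex III, and ATP5MC1 and ATP5F1D of complex V. This count turned on the 4 mM libraries. Without that of 5637, 15 members rose and 3 fell, without that of UM-UC3, 3 rose and 20 fell, and without both, 1 was called. Of all genes, 3150 were called with all libraries, 1533 of them as higher. They numbered 2677 (1211 higher) without the 5637 library at 4 mM, 4449 (2331 higher) without that of UM-UC3 and 351 (192 higher) without both. The calls of NDUFA2, COX7A2L and CYC1 held whichever single library was left out, and the other calls named here were each lost without at least 1 library. NDUFAF1 had an adjusted p of 0.0523 without the 5637 library at 4 mM, and there NDUFB8 had 0.0527, NDUFB7 0.0608, NDUFS6 0.153, ATP5MC1 0.12, NDUFB11 0.172 and ATP5F1D 0.24. NDUFS7 had 0.0601 with the UM-UC3 4 mM library left out, and 0.0514 and 0.0529 without the DMSO library of 5637 and of UM-UC3. Without the 5637 DMSO library, NDUFS6 had 0.0716 and ATP5MC1 0.0825, and NDUFS6 had 0.0557 without the 5637 library at 1 mM. ATP5F1D was lost without 6 of the 8 libraries in turn and NDUFB11 without 7.

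Among all members, 5 were called in the same direction by the slopes of both lines, 2 as higher (2.2% of members, against 5.39% of all genes) and 3 as lower (3.3%, against 6.32%). NDUFA2, an accessory subunit of complex I, rose most over both lines. It had 7.73, 11.1, 12.9 and 23.5 FPKM in 5637 at 0, 1, 2 and 4 mM, and 8.81, 13.4, 14.9 and 40.4 FPKM in UM-UC3. Every step was upward in both lines, and the fitted change was 1.44 ± 0.22 in 5637 (SE; adjusted p = 0.000748) and 2.03 ± 0.22 in UM-UC3 (adjusted p = 0.000518). COX7A2L, which takes part in joining complexes III and IV into a supercomplex, had 18.5, 19.6, 22.1 and 30.5 FPKM in 5637 and 43.4, 53.0, 47.1 and 77.3 FPKM in UM-UC3. Its fitted change was 0.71 ± 0.20 in 5637 and 0.76 ± 0.20 in UM-UC3 (adjusted p = 0.0177 and 0.0199), and their difference was −0.05 ± 0.29.

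Of those that fell in both lines, CYC1, cytochrome c1 of complex III, had 73.0, 56.6, 59.8 and 39.5 FPKM in 5637 and 137, 132, 104 and 62.1 FPKM in UM-UC3. The fitted change was −0.80 ± 0.20 in 5637 and −1.19 ± 0.20 in UM-UC3 (adjusted p = 0.010 and 0.0028). NDUFB8, an accessory subunit whose protein is widely used as a readout of assembled complex I, had 37.3, 30.8, 32.4 and 20.6 FPKM in 5637 and 50.6, 52.4, 35.8 and 33.2 FPKM in UM-UC3 (−0.78 ± 0.21 and −0.68 ± 0.21, adjusted p = 0.0149 and 0.0381). None of NDUFA2, COX7A2L, CYC1 and NDUFB8 had a called difference between the lines. Without the line's own 4 mM library, each lost its call within that line, with adjusted p from 0.111 to 0.621 in 5637 and from 0.152 to 0.359 in UM-UC3 for NDUFA2, CYC1 and NDUFB8. COX7A2L had 0.519 in 5637 and 0.838 in UM-UC3. CYC1, NDUFB8 and COX7A2L were also lost in 5637 without its DMSO library (0.0733, 0.0672 and 0.050), and NDUFB8 and COX7A2L in UM-UC3 without its DMSO library (0.124 and 0.0902). In UM-UC3, NDUFB8 had 0.0886 without the 1 mM library of that line and 0.0581 without that of 5637, and COX7A2L had 0.0581 with the libraries rescaled to the same total.

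**Figure D2:**
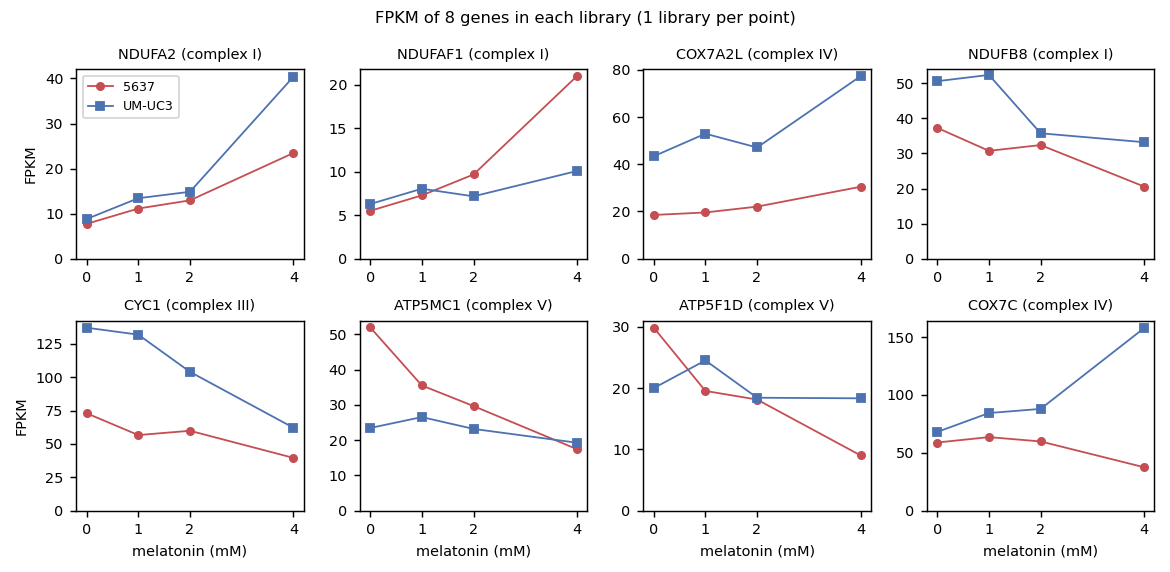
FPKM (vertical axis) of 8 members against the melatonin dose in mM, with 1 library per point, 5637 as circles and UM-UC3 as squares. NDUFA2 reached 23.5 FPKM in 5637 and 40.4 in UM-UC3 at 4 mM, while COX7C stood at 37.5 FPKM in 5637 and 158 in UM-UC3.

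The 250 bases before the transcription start are shown for the members called in the same direction in both lines that have a RefSeq promoter, and for ATP5MC1 and COX7C, described below, since ATP5MC1 was the member that stayed called in 5637 without its 4 mM library and COX7C had the largest called difference between the lines. They are RefSeq sequences on GRCh38.p14, at chr5:140647631-140647880 (minus strand) for NDUFA2, chr2:42361218-42361467 (minus) for COX7A2L, chr10:100529872-100530121 (minus) for NDUFB8, chr17:48892537-48892786 (plus) for ATP5MC1 and chr5:86617691-86617940 (plus) for COX7C. Capitals mark matches on either strand to short core motifs of factors known to act on respiratory genes, searched as GCGCATGC (NRF1), CCGGAAG (ETS factors such as GABP), AAGATGG (YY1), GGGCGG (SP factors) and AAGGTCA (estrogen-related receptors).
NDUFA2: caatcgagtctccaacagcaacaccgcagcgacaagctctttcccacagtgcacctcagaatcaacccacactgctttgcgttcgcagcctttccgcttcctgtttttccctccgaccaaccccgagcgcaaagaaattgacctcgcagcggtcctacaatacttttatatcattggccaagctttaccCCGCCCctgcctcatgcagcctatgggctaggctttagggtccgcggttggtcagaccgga
COX7A2L: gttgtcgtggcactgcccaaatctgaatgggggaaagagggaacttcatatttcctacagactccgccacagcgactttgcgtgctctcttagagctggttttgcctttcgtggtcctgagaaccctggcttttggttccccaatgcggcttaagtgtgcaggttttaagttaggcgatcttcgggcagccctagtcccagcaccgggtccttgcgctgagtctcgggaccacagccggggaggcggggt
NDUFB8: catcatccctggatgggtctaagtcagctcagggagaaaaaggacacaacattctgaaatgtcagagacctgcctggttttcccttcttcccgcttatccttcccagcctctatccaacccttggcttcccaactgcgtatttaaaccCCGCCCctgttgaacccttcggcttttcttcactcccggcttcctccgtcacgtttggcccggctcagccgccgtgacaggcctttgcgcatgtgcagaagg
ATP5MC1: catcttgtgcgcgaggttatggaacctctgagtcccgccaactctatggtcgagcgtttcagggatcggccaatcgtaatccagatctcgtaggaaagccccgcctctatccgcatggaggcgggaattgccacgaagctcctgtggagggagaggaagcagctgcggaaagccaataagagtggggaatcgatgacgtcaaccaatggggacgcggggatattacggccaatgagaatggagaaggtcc
COX7C: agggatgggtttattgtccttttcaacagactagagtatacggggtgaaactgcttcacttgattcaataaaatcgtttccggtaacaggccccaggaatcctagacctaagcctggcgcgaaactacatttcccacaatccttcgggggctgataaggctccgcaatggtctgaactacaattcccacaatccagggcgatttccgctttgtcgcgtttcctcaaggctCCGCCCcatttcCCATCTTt

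NDUFA2 and NDUFB8 each hold 1 SP match, 61 and 102 bases before the start, COX7C holds an SP match at 20 bases and a YY1 match at 8 bases, and COX7A2L and ATP5MC1 hold none of the 5 motifs in these 250 bases. RefSeq promoters of 74 of the 91 members were searched over 300 bases, from 250 before to 50 after the start. For a member the promoter nearest the start of its GENCODE transcript was taken, and for each of 27305 RefSeq genes the first listed. The 27305 were not limited to the genes tested here, so the shares below are not like for like. The NRF1 core was in 15 of 74 (20.3%), against 3.27% of the promoters of these 27305 genes. The ETS core was in 29.7% against 10.7%, the YY1 core in 25.7% against 6.06%, the SP core in 63.5% against 44.6%, and the core for estrogen-related receptors in 12.2% against 3.97%. Members with the NRF1 core had a median change of −0.39 in 5637 and 0.35 in UM-UC3, and those without it −0.41 and 0.39. The 19 members with the YY1 core had medians of −0.58 and 0.12, and the 55 without it −0.36 and 0.49. For the ETS core the medians were −0.40 and 0.37 with it (22 members) and −0.41 and 0.39 without it (52 members). For the SP core they were −0.41 and 0.22 with it (47 members) and −0.40 and 0.65 without it (27 members). For the core of the estrogen-related receptors they were −0.27 and −0.07 with it (9 members) and −0.41 and 0.45 without it (65 members). These are descriptions with no test, and a match is not a bound site.

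In complex I, 13 of 46 members (28.3%, against 20.4% of all genes) fell and 2 (4.35%, against 23%) rose in 5637, with a median of −0.44. In UM-UC3, 12 (26.1%, against 12.5%) rose and 5 (10.9%, against 16.7%) fell, with a median of 0.39, or 0.20 with the libraries rescaled to the same total. In UM-UC3 the core subunits had a median of −0.28, and of 30 accessory subunits 10 rose and 3 fell (median 0.52). In 5637 the core subunits had a median of −0.54, and 8 accessory subunits fell and 1 rose (median −0.37). The difference between core and accessory subunits was not tested. Among the core subunits that fell were NDUFS3 (−0.64 ± 0.22, adjusted p = 0.036) and NDUFS8 (−0.80 ± 0.25, adjusted p = 0.0269) in 5637 and NDUFS7 (−1.28 ± 0.25, adjusted p = 0.00533) in UM-UC3. NDUFS7, which carries the last iron-sulfur cluster before ubiquinone, had 21.9, 16.6, 15.1 and 14.2 FPKM in 5637 and 32.9, 30.3, 29.5 and 13.1 FPKM in UM-UC3, so its fall in UM-UC3 lay almost wholly at 4 mM. NDUFV1, which binds NADH and the flavin, had changes of −0.48 ± 0.20 in 5637 and 0.25 ± 0.20 in UM-UC3, and NDUFV2 and NDUFS1 were also called in neither line. NDUFV1 had an adjusted p of 0.0742 in 5637, and 0.0273 with the UM-UC3 share taken off, 0.0494 without the UM-UC3 library at 2 mM and 0.0381 without that at 4 mM. Without the 4 mM library of the line, NDUFS3, NDUFS8 and NDUFS7 had adjusted p of 0.425, 0.704 and 0.779. NDUFS3 and NDUFS8 had 0.105 and 0.164 without the 5637 DMSO library, and NDUFS3 had 0.0799 with the 1 mM library of 5637 left out and 0.0525 with the DMSO library of UM-UC3 left out. The change of NDUFS7 in 5637 was called with the UM-UC3 4 mM library left out (0.0482) but not with all libraries.

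Among the accessory subunits, NDUFS6, which carries a zinc ion, fell most in 5637. It had 46.7, 48.2, 35.4 and 17.1 FPKM in 5637 and 30.1, 43.2, 23.2 and 23.3 FPKM in UM-UC3, with changes of −1.49 ± 0.32 (adjusted p = 0.00489) and −0.58 ± 0.32 (adjusted p = 0.205). NDUFB7 and NDUFS5 followed in 5637 with −1.13 ± 0.23 and −1.04 ± 0.25. NDUFA5 had 15.8, 13.9, 15.6 and 13.2 FPKM in 5637, where it was not called (−0.19 ± 0.19), and 9.84, 10.7, 12.6 and 20.5 FPKM in UM-UC3, where it rose by 1.02 ± 0.19 (adjusted p = 0.00431). NDUFA9 and NDUFB3 rose in UM-UC3 by 0.95 ± 0.22 and 0.97 ± 0.27. Besides NDUFB8, NDUFB9 and NDUFV3 fell in UM-UC3 (−0.69 ± 0.23 and −0.67 ± 0.21, adjusted p = 0.0447 and 0.037), and NDUFV3 had 6.13, 6.53, 7.89 and 8.31 FPKM in 5637 against 5.08, 4.4, 3.20 and 2.88 FPKM in UM-UC3. It was the only complex I subunit whose difference between the lines was called with a positive sign, at 1.08 ± 0.30 (adjusted p = 0.0251). Without the 4 mM library of the line, the adjusted p was 0.499 for NDUFS6, 0.495 for NDUFB7 and 0.719 for NDUFS5 in 5637, and 0.428 for NDUFA5, 0.694 for NDUFA9, 0.925 for NDUFB3, 0.671 for NDUFB9 and 0.252 for NDUFV3 in UM-UC3. The fall of NDUFB9 was lost without 5 of the 8 libraries in turn (adjusted p up to 0.104 apart from that at 4 mM), and the fall of NDUFV3 without 4 (likewise up to 0.201). The difference for NDUFV3 was lost without 6 of the 8 libraries in turn, with adjusted p up to 0.158.

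The 8 assembly factors were mixed. NDUFAF1, which acts early in the building of the membrane arm, had 5.51, 7.29, 9.69 and 21.0 FPKM in 5637 and 6.29, 8.06, 7.18 and 10.1 FPKM in UM-UC3. It rose at every step in 5637, by 1.77 ± 0.21 (adjusted p = 0.000199), the largest rise of a member there, and its change in UM-UC3 was 0.54 ± 0.21 (adjusted p = 0.0754). The difference was 1.24 ± 0.29 (adjusted p = 0.0137). NDUFAF6 and NDUFAF8 fell in 5637 (−0.58 ± 0.19 and −0.74 ± 0.24, adjusted p = 0.0338 and 0.0307), whereas NDUFAF4 and NDUFAF5 rose in UM-UC3 (1.01 ± 0.24 and 1.01 ± 0.23). NDUFAF4 had 4.95, 5.27, 3.77 and 3.55 FPKM in 5637 and 4.12, 4.44, 4.74 and 9.22 FPKM in UM-UC3. Without the 5637 library at 4 mM, NDUFAF6, NDUFAF8 and NDUFAF1 had adjusted p of 0.514, 0.32 and 0.0703 in 5637, and the difference of NDUFAF1 had 0.236 without it and 0.181 with the UM-UC3 4 mM library left out. NDUFAF6 and NDUFAF8 had 0.0783 and 0.291 without the 5637 DMSO library, and NDUFAF6 had 0.0755 and 0.0527 without the 1 mM library of 5637 and of UM-UC3. NDUFAF4 and NDUFAF5 had 0.794 and 0.676 in UM-UC3 without its 4 mM library.

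In complex II, 2 of 4 members (50%, against 20.4% of all genes) fell in 5637. SDHA, the flavoprotein that oxidises succinate, had 48.4, 44.5, 44 and 30.6 FPKM in 5637 and 36.9, 34.7, 30.8 and 39.2 FPKM in UM-UC3, and fell in 5637 (log2 change −0.64 ± 0.20, adjusted p = 0.0262). SDHC, a membrane anchor, had 61.7, 59.7, 62.0 and 36.7 FPKM in 5637 and 35.9, 36.7, 34.8 and 29.2 FPKM in UM-UC3 (−0.74 ± 0.21 in 5637, adjusted p = 0.0174). In both genes the 4 mM library was the low one in 5637. The iron-sulfur subunit SDHB had changes of −0.24 ± 0.18 in 5637 and −0.37 ± 0.18 in UM-UC3, and the other anchor, SDHD, −0.16 ± 0.18 and −0.07 ± 0.18. By limma, none of the 4 was called in UM-UC3 (median −0.19, 0 at an unadjusted p under 0.05) or for the difference (1 at an unadjusted p under 0.05). Without the 5637 library at 4 mM, SDHA had an adjusted p of 0.725, and the change of SDHC turned to 0.01. SDHA also had 0.0672 without the 5637 DMSO library and 0.0528 without the 5637 library at 1 mM. With the libraries rescaled to the same total, the UM-UC3 median was −0.38 and SDHB was called there (0.04).

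In complex III, 2 of 9 members (22.2%, against 20.4% of all genes) fell in 5637. In UM-UC3, 4 (44.4%, against 12.5%) rose and 1 (11.1%, against 16.7%) fell. CYC1 fell in both lines as given above. The Rieske iron-sulfur protein UQCRFS1, the other catalytic member, had 23.7, 23.1, 22 and 21.2 FPKM in 5637 and 21.2, 22.8, 19.0 and 15.9 FPKM in UM-UC3, and was not called in either line (−0.16 ± 0.17 and −0.45 ± 0.17). Of the other 7 subunits, UQCRB, UQCRH, UQCRQ and UQCR10 rose in UM-UC3, by 0.97 ± 0.19, 0.78 ± 0.23, 1.07 ± 0.21 and 0.65 ± 0.21, and the difference from 5637 was called for the same 4, at −1.29, −1.23, −1.21 and −0.97. UQCRH, which hinges cytochrome c1 to its partner, had 72, 59.6, 60.6 and 50.4 FPKM in 5637 and 113, 115, 109 and 193 FPKM in UM-UC3, with the rise at 4 mM alone. UQCRC1, a core protein on the matrix side, fell in 5637 (−0.60 ± 0.19, adjusted p = 0.0308). With the UM-UC3 4 mM library left out, UQCRB, UQCRQ and UQCR10 had adjusted p of 0.519, 0.331 and 0.826, and the change of UQCRH turned to −0.09. UQCRC1 had 0.815, 0.0626 and 0.0616 without the 5637 library at 4 mM, with DMSO and at 1 mM. In UM-UC3, UQCRQ had 0.0655 without the DMSO library and UQCRH 0.0669 without the 1 mM library, and UQCR10 was lost without 5 of the 8 libraries in turn. With the libraries rescaled to the same total, the UM-UC3 median was 0.02, against 0.20 as deposited, UQCRH had 0.0681 and UQCR10 0.121, and UQCRFS1 was called as lower (0.0246).

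Complex IV had the highest median in UM-UC3. Of its 14 members, 7 (50%, against 12.5% of all genes) rose there and none fell (median 0.66). In 5637 the median was −0.12, with 1 (7.14%, against 23%) higher and 2 (14.3%, against 20.4%) lower. The UM-UC3 count includes COX7B2 and the 5637 count of lower members includes COX6B2, each of which had next to no signal in the other line. Each passed the minimum only through the line of its call, and the shares and medians of complex IV without them were not computed. COX6B1, on the cytochrome c side, had 84.9, 70.0, 88.4 and 68.9 FPKM in 5637 and 76.0, 91.4, 109 and 186 FPKM in UM-UC3 (1.29 ± 0.21, adjusted p = 0.0023). COX7A2, a small membrane subunit, had 37.5, 36.5, 47.4 and 39.5 FPKM in 5637 and 26, 40.5, 41.2 and 72.2 FPKM in UM-UC3 (1.34 ± 0.22, adjusted p = 0.00254). Both rose at every step in UM-UC3 and in neither did the 5637 values order by dose. COX7C had 58.8, 63.5, 59.8 and 37.5 FPKM in 5637 and 68.0, 84.3, 87.9 and 158 FPKM in UM-UC3. It fell in 5637 (−0.69 ± 0.23, adjusted p = 0.0311) and rose in UM-UC3 (1.17 ± 0.23, adjusted p = 0.00485), and its difference of −1.86 ± 0.32 (adjusted p = 0.00402) was the largest of any member called. Other calls in UM-UC3 were COX7A2L, COX7B and NDUFA4, the last a subunit of complex IV despite its name (0.93 ± 0.21, adjusted p = 0.00977). COX4I1, the largest nuclear-encoded subunit, was called in neither line (−0.32 ± 0.28 and 0.39 ± 0.28). With the UM-UC3 4 mM library left out, COX6B1, COX7A2 and NDUFA4 had adjusted p of 0.28, 0.238 and 0.483, COX7B had 0.632 and COX7C 0.459, and without the 5637 library at 4 mM the change of COX7C in 5637 turned to 0.04. COX7C also lost its call in 5637 without the 1 mM library of 5637 (0.0732) and of UM-UC3 (0.0501). In UM-UC3, NDUFA4 and COX7B had 0.0765 and 0.0783 without the DMSO library, and COX7B 0.0702 without the 1 mM library.

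Complex V had the lowest median in 5637, where 10 of 18 members (55.6%, against 20.4% of all genes) fell and none rose (−0.58), while in UM-UC3 ATP5MD rose (0.88 ± 0.19; 5.56%, against 12.5%) and none fell. The UM-UC3 median of 0.17 became −0.02 with the libraries rescaled to the same total. ATP5MC1, one of the genes for the c-ring, had 52.0, 35.5, 29.6 and 17.4 FPKM in 5637 and 23.4, 26.5, 23.2 and 19.2 FPKM in UM-UC3. Its fall of −1.48 ± 0.19 in 5637 (adjusted p = 0.000303) came down at every step, and it was the single member that kept its call with the 5637 4 mM library left out (adjusted p = 0.0468). ATP5F1D, the delta subunit of the central stalk, had 29.9, 19.5, 18.1 and 9.01 FPKM in 5637 and 20.0, 24.5, 18.4 and 18.3 FPKM in UM-UC3 (−1.55 ± 0.22 in 5637, adjusted p = 0.000543). ATP5ME, at the dimer interface, had 33.9, 25.4, 31.2 and 13.5 FPKM in 5637 and 19.3, 20.8, 16.2 and 25.8 FPKM in UM-UC3 (−1.18 ± 0.30, adjusted p = 0.0111). ATP5F1C and ATP5F1E of the stalk also fell in 5637 (−0.69 ± 0.18 and −0.70 ± 0.24).

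The catalytic beta subunit ATP5F1B, the most abundant member, had 217, 179, 159 and 192 FPKM in 5637 and 552, 572, 489 and 440 FPKM in UM-UC3 and was called in neither line (−0.14 ± 0.23 and −0.37 ± 0.23). The alpha subunit ATP5F1A had 45.5, 112, 80.1 and 73.0 FPKM in 5637 and 174, 70.6, 127 and 154 FPKM in UM-UC3, which did not order by dose and left an SE of 0.70. ATP5MC2 and ATP5MC3, which encode the same mature c subunit as ATP5MC1, had changes of −0.49 ± 0.18 and −0.27 ± 0.23 in 5637. The adjusted p of ATP5MC2 was 0.0501, so its call turned on the setting. With the UM-UC3 share taken off it was 0.00265, and it was 0.0442 after trimmed mean factors, 0.0478 with a minimum mean of 5 FPKM, 0.0474 over protein-coding genes alone, 0.0482 with a pseudocount of 0.1 and 0.0415 with the UM-UC3 4 mM library left out. ATP5IF1, the inhibitor of ATP hydrolysis by complex V, had 15.8, 16, 17.3 and 21.4 FPKM in 5637 and was not called (0.43 ± 0.27, adjusted p = 0.22). Without the 5637 library at 4 mM, the members named as falling in 5637 other than ATP5MC1 had adjusted p from 0.105 for ATP5F1D to 0.841 for ATP5ME, and ATP5F1E had 0.133 without the 5637 DMSO library. ATP5MD had 0.678 in UM-UC3 with the UM-UC3 4 mM library left out.

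**Figure D3:**
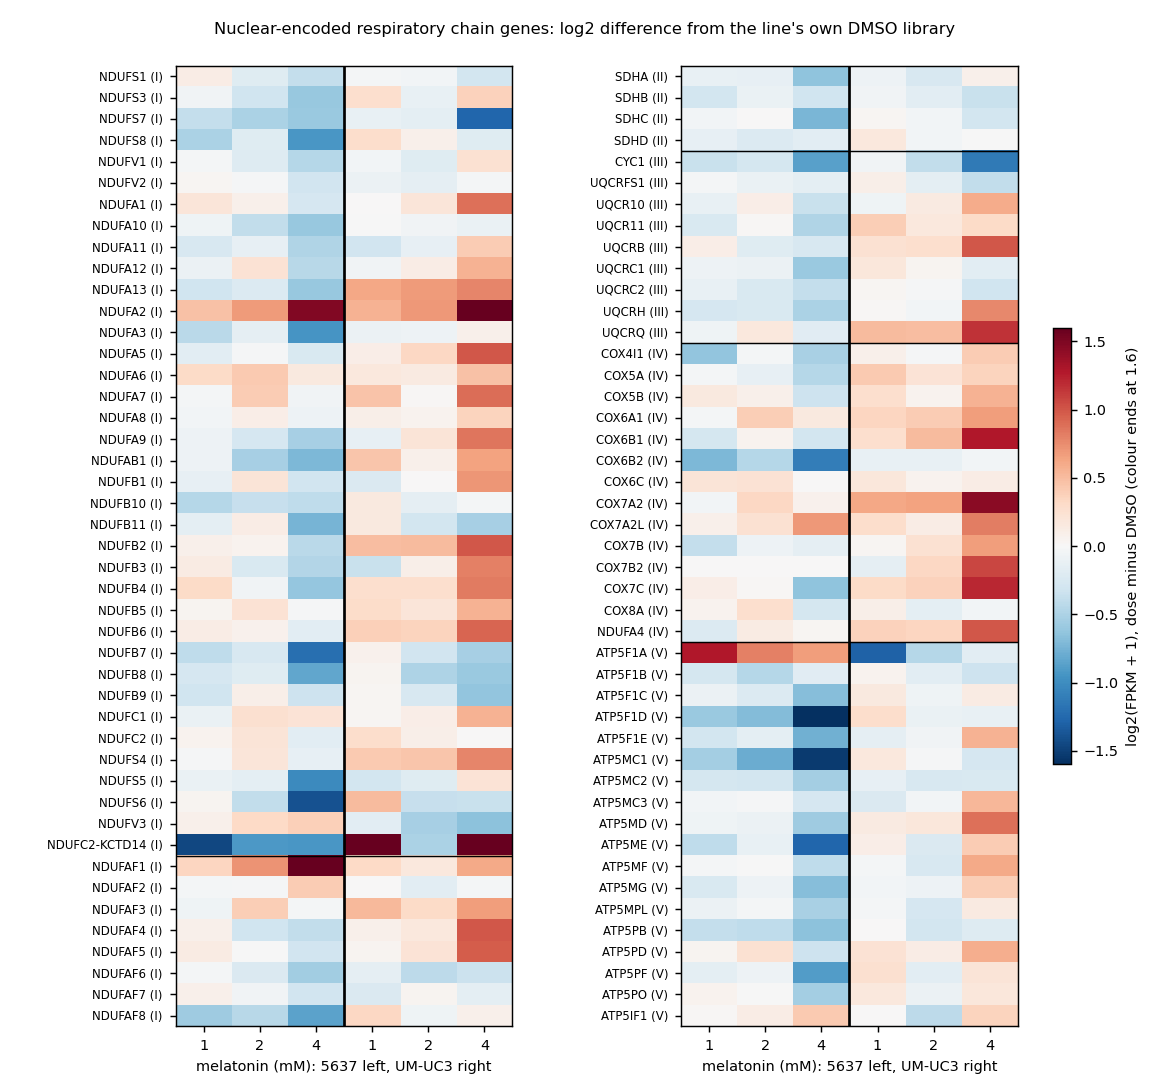
Difference from the DMSO library of the same line in log2(FPKM + 1) for the members (rows, with the complex in brackets, 1 member not shown) at 1, 2 and 4 mM (columns), 5637 on the left and UM-UC3 on the right of each block. Blue is lower and red is higher than DMSO, and most strong colours are in the 4 mM columns, ATP5F1A and NDUFC2-KCTD14 excepted, with 77 of all 91 members below DMSO in 5637 and 60 of 91 above it in UM-UC3. The shares of all genes below or above DMSO were not computed.

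The changes in the 2 lines can be set side by side for each gene. The fitted change was below 0 in 5637 and above 0 in UM-UC3 for 46 members, below 0 in both for 30, above 0 in both for 12, and above 0 in 5637 and below 0 in UM-UC3 for 2, NDUFV3 and NDUFAF2. The remaining member, COX7B2, was listed at 0 in every 5637 library and so had no change there. The shares of all genes in these classes were not computed, nor those among genes with a called difference. The medians over all genes were 0.05 in 5637 and −0.04 in UM-UC3. Of the 28 members with a called difference, 22 had a negative change in 5637 and a positive change in UM-UC3, and 3 of these (NDUFB4, COX7C and ATP5MD) were called in each line, which is 3.3% of members against 0.901% of all genes. NDUFB4 had 61.0, 75.6, 58.6 and 39.5 FPKM in 5637 and 32.2, 39.1, 39.1 and 57.9 FPKM in UM-UC3, a difference of −1.53 ± 0.33 (adjusted p = 0.00994). ATP5MD had 28.4, 27.0, 26.7 and 18.8 FPKM in 5637 and 44.9, 49.6, 51.1 and 83.3 FPKM in UM-UC3, a difference of −1.45 ± 0.27 (adjusted p = 0.00598). By complex, 12 of 46 differences were called negative in complex I (26.1%, against 10.4% of all genes), 0 of 4 in complex II, 4 of 9 in complex III (44.4%), 4 of 14 in complex IV (28.6%, COX7B2 included) and 6 of 18 in complex V (33.3%). Without the 5637 or the UM-UC3 library at 4 mM, the difference had an adjusted p of 0.271 and 0.265 for NDUFB4, 0.143 and 0.193 for COX7C, and 0.154 and 0.261 for ATP5MD. Within the lines, NDUFB4 lost its call in 5637 without the 1 mM library (0.0546) and in UM-UC3 without the DMSO library (0.145), the 1 mM library (0.0538) or at the same total (0.0838). ATP5MD lost its call in 5637 without the DMSO library (0.0696) or the 1 mM library of 5637 (0.0716) or of UM-UC3 (0.0579). Each lost its call in a line without that line's 4 mM library too, at 0.911 and 0.647 for NDUFB4 in 5637 and UM-UC3 and 0.82 for ATP5MD in 5637.

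**Figure D4:**
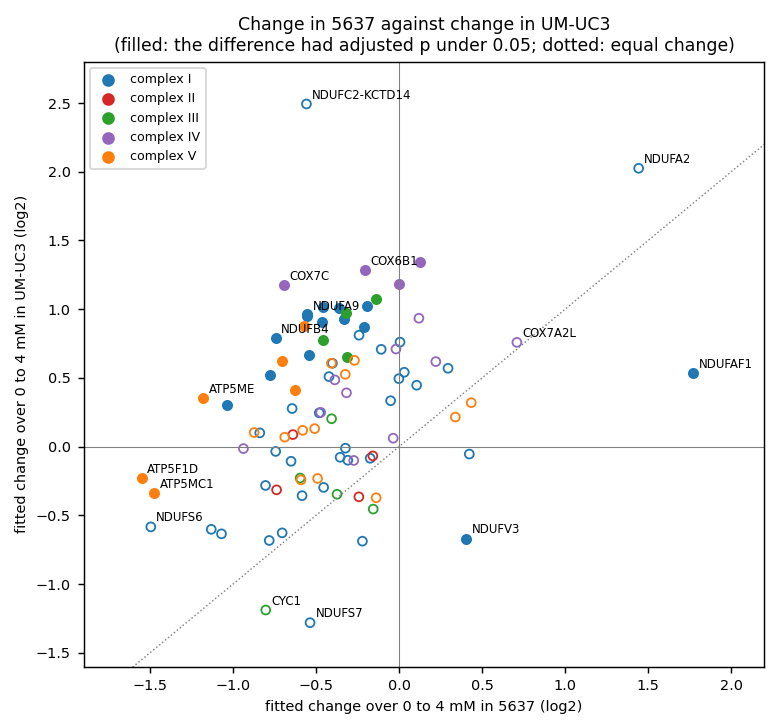
Fitted change over 0 to 4 mM of each member in 5637 (horizontal axis, log2) against UM-UC3 (vertical axis, log2), coloured by complex. Filled points had a called difference and the dotted line marks equal change. The upper left, below 0 in 5637 and above 0 in UM-UC3, holds 46 members, and NDUFA2 and NDUFAF1 lie farthest to the right at 1.44 and 1.77. The share of all genes in the upper left was not computed.

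Over all doses, 22 members had a higher level in 5637 than in UM-UC3 and 27 a lower one, which is 24.2% and 29.7% of the members, against 36.7% and 30% of all genes. The split depended on scaling, with 16 higher and 32 lower after trimmed mean factors and 30 higher and 24 lower at the same total. It also turned on the 4 mM libraries, with 36 higher and 25 lower without that of 5637 and 37 higher and 25 lower without that of UM-UC3. With each dose taken as a block, 18 were higher and 24 lower. The largest difference was that of ATP5MC2, with 51.2, 41.8, 41.6 and 34.9 FPKM in 5637 and 326, 298, 272 and 276 FPKM in UM-UC3 (−2.77 ± 0.11, adjusted p = 1.21e-07). Levels of SDHD, with 29.1 to 33.9 FPKM in 5637 and 77.5 to 90.1 in UM-UC3, ATP5F1B (−1.46 ± 0.13), UQCRB (−1.39 ± 0.19) and COX7A2L (−1.24 ± 0.12) were also lower in 5637. NDUFAF8, with 23.2 to 42.9 FPKM in 5637 and 7.67 to 10.5 in UM-UC3 (1.72 ± 0.16), ATP5MF (1.43 ± 0.19) and NDUFB11 (1.38 ± 0.15) were higher. These calls held under each scaling and without each library in turn. Of the complex I core, NDUFS7, NDUFS8, NDUFV1 and NDUFV2 were lower in 5637 and NDUFS1 and NDUFS3 higher. The last 2 and NDUFS7 lost the call without 1 library or another, with adjusted p up to 0.105 for NDUFS1, 0.0775 for NDUFS3 and 0.053 for NDUFS7.

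A few subunits have tissue isoforms. COX6B2, the testis form of COX6B1, had 4.76, 2.5, 3.21 and 1.69 FPKM in 5637 and at most 0.0847 FPKM in UM-UC3. COX7B2, the testis form of COX7B, was listed at 0 in all 5637 libraries and had 1.80, 1.53, 2.53 and 4.86 FPKM in UM-UC3. Each had a mean over the minimum only because of the line in which it is high, so their changes and levels are given as values with no test. The fitted change was −0.94 for COX6B2 in 5637 and 1.19 for COX7B2 in UM-UC3, and a difference between the lines restates the change of COX7B2 in UM-UC3, since it was at 0 in every 5637 library. Without these genes, 21 members had a higher level in 5637 and 26 a lower one. The heart and muscle forms COX6A2 and COX7A1 and the lung form COX4I2 were listed at 0 in every library, while the usual forms COX4I1, COX6A1 and COX7A2 averaged 84.0, 155 and 42.6 FPKM. The other matching rows under the minimum were NDUFA4L2, COX8C, UQCRHL, ATP5MGL and the readthrough ATP5MF-PTCD1, with means of 0.317, 0.0417, 0.486, 0.0298 and 0.287 FPKM. The readthrough NDUFC2-KCTD14 passed the minimum but shares exons with NDUFC2, and its values of 14.5, 4.64, 7.19 and 7.17 FPKM in 5637 and 1.15, 7.91, 0.521 and 18.3 FPKM in UM-UC3 are uncertain.

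**Figure D5:**
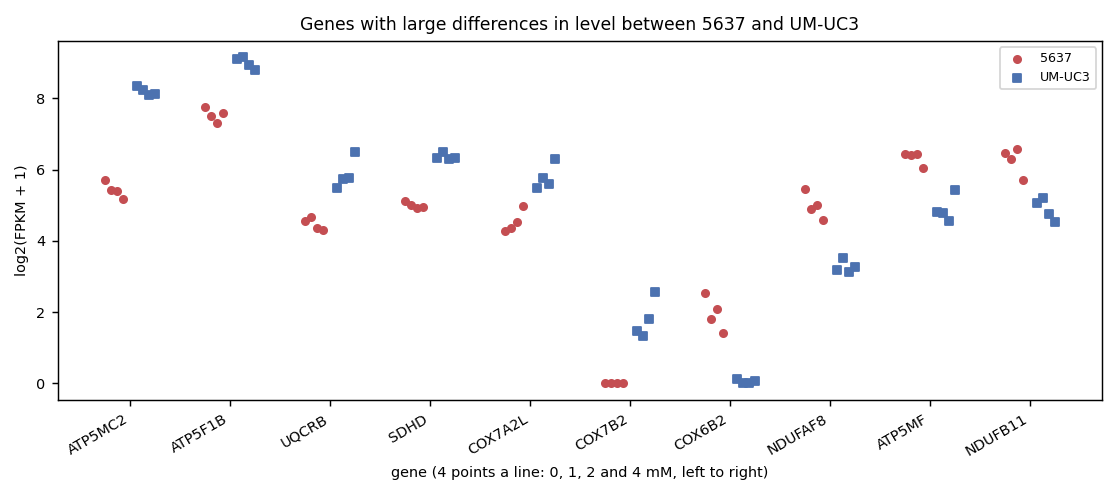
Level of 10 members (horizontal axis) as log2(FPKM + 1) (vertical axis), with 4 points per line for 0, 1, 2 and 4 mM from left to right, 5637 as circles left of UM-UC3 as squares. The 5637 and UM-UC3 points are apart for each gene, and ATP5MC2 is farthest apart (34.9 to 51.2 FPKM against 272 to 326). COX6B2 and COX7B2 are over the minimum through 1 line alone.

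Other gene groups give the setting, each to be read against the 23% higher and 20.4% lower of all genes in 5637 and the 12.5% higher and 16.7% lower in UM-UC3. Of the 13 mitochondrially encoded subunits, none was called in 5637 by limma (2 at an unadjusted p under 0.05), and their median was 0.27, 0.33 and 0.45 above DMSO at 1, 2 and 4 mM. In UM-UC3, 3 (23.1%) rose, among them MT-CO1 (1.28 ± 0.28) and MT-CO2 (1.23 ± 0.30), but the group did not order by dose, with medians of −0.17, 0.61 and 0.13, and with 12 of 13 below DMSO at 1 mM, 12 above it at 2 mM and 7 above it at 4 mM. Of 78 mitochondrial ribosomal proteins, 42 (53.8%) fell and 4 (5.13%) rose in 5637 (median −0.64), and 12 (15.4%) rose and 5 (6.41%) fell in UM-UC3 (median 0.08). Of 81 cytosolic ribosomal proteins, 14 (17.3%) fell and 3 (3.7%) rose in 5637 (median −0.27), and 34 (42%) rose and none fell in UM-UC3 (median 0.59). Of 14 enzymes of the tricarboxylic acid cycle, 8 (57.1%) fell and 1 (7.14%) rose in 5637 (median −0.49) and 3 (21.4%) fell in UM-UC3 (median −0.20), with FH falling in both (−1.03 ± 0.19 and −0.74 ± 0.19). The 51 assembly factors outside the name rule had medians of 0.06 and −0.02, with 5 (9.8%) higher and 8 (15.7%) lower in 5637 and 8 (15.7%) higher and 5 (9.8%) lower in UM-UC3. Of 20 genes of electron carriers and ubiquinone synthesis, 5 (25%) were higher and 6 (30%) lower in 5637, and 3 (15%) were higher and 5 (25%) lower in UM-UC3. Among them ETFDH, which feeds electrons from fatty acid oxidation to ubiquinone, rose in both lines (1.64 ± 0.19 and 1.37 ± 0.19). Among 17 regulators of respiratory gene transcription, 1 (5.88%) rose and 3 (17.6%) fell in 5637. Those that fell were the coactivators PPRC1 (−1.72 ± 0.22) and PPARGC1B (−1.21 ± 0.21) and the mitochondrial RNA polymerase POLRMT (−1.33 ± 0.21). In UM-UC3, 2 (11.8%) rose, MTERF3 (1.06 ± 0.18) and POLG2 (0.63 ± 0.19), and 2 (11.8%) fell, among them YY1 (−0.68 ± 0.17).

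Most members have short transcripts, with a median of 804 bases against 3408 for the 11445 protein-coding genes tested, so length was compared. Lengths are those of the transcript marked canonical for each gene in GENCODE release 44. It need not be the form expressed in these cells. Among other protein-coding genes, the median change in UM-UC3 was 0.45 for transcripts of up to 600 bases and 0.16 for those from there up to 1000 bases. It was −0.002 in the next class, up to 2000 bases, −0.02 in that up to 4000 bases and −0.09 for those over 4000 bases. The members' medians in UM-UC3 were 0.61 and 0.20 in the same first classes (24 and 28 members), and −0.01, 0.62 and 0.49 in the classes up to 2000, up to 4000 and over 4000 bases (19, 11 and 9 members). In 5637, members had medians of −0.44, −0.44, −0.47, −0.27 and −0.32 from the shortest to the longest of 5 length classes, and other genes 0.01, −0.19, −0.08, 0.02 and 0.14. Across the 91 members, Spearman's rho of length with the fitted change was 0.14 in 5637, −0.18 in UM-UC3 and 0.30 for the difference of trends. Over the 11445 protein-coding genes tested, it was 0.12, −0.11 and 0.20. These are descriptions across genes, which are not independent. The part that length plays in the UM-UC3 rises or in the difference between the lines was not tested.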

How the data were processed

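RNA-seq of 5637 and UM-UC3 cells at 4 doses was read from the table the authors deposited, which gives 1 value per gene and library. The sheet names no unit; the deposited values were taken as FPKM because they are fractional, library sums differ, and StringTie is among the tools in the submitters' processing notes. The authors prepared strand-marked poly(A) libraries, sequenced pairs of 150 bases, trimmed them and aligned them to GRCh38 with HISAT2. The notes also name CASAVA 1.8, FastQC and Trimmomatic. For the annotation, the release was not given in the sources used here, and the RNA kit differs between labels and methods. Without counts, depth is unknown, no counting interval is given, and the count test planned in case of counts was not run. A sheet repeating these values for a subset of genes and a sheet of the authors' correlations between libraries were not used.

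Values were set to log2(FPKM + 1), and 12649 genes with a mean of at least 1 FPKM were fitted with limma 3.58.1 in R 4.3.3 (trend and robust), with dose in mM divided by 4, so that a change is that fitted over 0 to 4 mM and understates the change of low genes. One fit had a term for the line and a common slope, and the other a slope for each line. Both used all 8 libraries, so the slopes of the lines share 1 estimate of the spread and the same SE. A call in 1 line can therefore move when a library of the other line is left out. P-values were adjusted by Benjamini-Hochberg over all genes, called under 0.05. With 1 library per dose and line, they measure only the scatter of libraries around a straight line, which may be technical. The members and lists were chosen with earlier results of these data known. Named genes were all of complex II, the catalytic, core and ring subunits, isoform pairs, the 3 largest called per complex and comparison, and all called where 5 or fewer of a complex were called in a direction, with up to 3 per list outside. Other genes named (NDUFB7, NDUFS5, NDUFAF2, NDUFAF4, NDUFAF5, NDUFAF6, NDUFC2-KCTD14, COX7B and ATP5IF1) were chosen after their values were seen. Counts and medians include 1 member that is not reported here by name. Gene names are those of the table; all 91 members overlap their GENCODE release 44 gene, 79 with the same start and end. The code of both fits was tested on simulated data. Python 3.11.15, pandas 2.3.3 and matplotlib 3.10.9 were used for tables and plots. Alternatives were 2 rescalings, other filters, a pseudocount of 0.1, other codings of dose and leaving out libraries; the removal of the UM-UC3 share and the fits with each dose as a block were added after seeing the data.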

Additional observations from a re-analysis of the deposited data

Results flagged for a closer look

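The change over dose differed between 5637 and UM-UC3 for 28 members by the test of the difference in limma, or 27 without COX6B2 and COX7B2. Those named, with the log2 difference of 5637 minus UM-UC3, were NDUFA9 (−1.51), NDUFB3 (−1.52), NDUFB4 (−1.53), NDUFV3 (1.08) and NDUFAF1 (1.24) of complex I, and UQCR10 (−0.97), UQCRB (−1.29), UQCRH (−1.23) and UQCRQ (−1.21) of complex III. In complex IV they were COX6B1 (−1.49), COX7A2 (−1.22), COX7B2 (−1.19) and COX7C (−1.86), and in complex V ATP5MD (−1.45), ATP5ME (−1.53), ATP5F1D (−1.32), ATP5F1E (−1.33) and ATP5MC1 (−1.14). COX7B2 was at 0 in every 5637 library, so its value restates its UM-UC3 change and is no comparison of trends. No member's difference was called without either 4 mM library. Without the DMSO library of 1 line or the other, the differences of NDUFV3, UQCR10, UQCRH, UQCRQ, COX7A2, ATP5ME, ATP5F1D and ATP5MC1 were also lost. Their adjusted p lay between 0.0512 and 0.0898 (limma).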

How the results depend on the processing

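Of the members, 12 were called over both lines, 32 in 5637, 30 in UM-UC3, 28 for the difference and 49 for the level. Keeping all genes above 0 in the fit left 3 over both lines, 9 in 5637, 7 in UM-UC3 and 0 for the difference (44 at an unadjusted p under 0.05). Dose on a log2 scale left 11 in 5637, 9 in UM-UC3 and 1 for the difference. Any dose against DMSO left 0 for each change by limma, with 1 or 2 at an unadjusted p under 0.05. Of all genes, 3544, 1462 and 763 were called on the log2 scale and 0 for any dose against DMSO. With all genes above 0 kept, 1104 of them were called over both lines, 4649 in 5637, 1676 in UM-UC3 and 318 for the difference. Without both 4 mM libraries, 1 was called over both lines, 1 in 5637, 0 in UM-UC3 and 0 for the difference (12 and 3 unadjusted for the last pair). The calls over all genes were then 351, 1151, 525 and 116, in the same order. Leaving out single libraries gave 7 to 23 over both lines, 1 to 34 in 5637, 0 to 34 in UM-UC3, 0 to 34 for the difference and 40 to 62 for the level. Rescaling to the same total moved the UM-UC3 medians to 0.20 in complex I, −0.38 in II, 0.019 in III, 0.47 in IV and −0.021 in V, with the median difference of all genes at 0.30. Taking the UM-UC3 share off the 5637 library at 4 mM, added after seeing the data, moved the 5637 median of complex V to −0.69 and left 31 differences called. The change turned in sign for SDHC (0.011) and COX7C (0.045) in 5637 without its 4 mM library and without both, for UQCRH (−0.088) in UM-UC3 without its own and without both, and for the differences of NDUFS5 (0.074) and ATP5ME (0.24) without both. Over single libraries left out, SDHC ranged from −0.995 to 0.011, COX7C from −1.04 to 0.045 and UQCRH from −0.088 to 1.08. The cause was not tested. With the libraries of both lines paired by dose (each dose as a block, added after seeing the data), 25 differences and 42 levels were called. Apart from COX7B2, at 0 in every 5637 library, the differences of UQCR10 (adjusted p = 0.0521) and ATP5ME (0.0563) lost the call. That of NDUFS3 gained it (0.0464), and the levels of NDUFS1 (0.0681) and NDUFS3 (0.0507) lost it. A change within a line cannot be paired this way. Depth is unknown.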
